A study of Homo sapiens with 6 samples.

Results

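Mitochondrial carriers of the SLC25 family are membrane proteins that exchange metabolites, nucleotides, cofactors and ions across the inner mitochondrial membrane. Members were taken as every gene of the deposited table whose symbol is SLC25A followed by a number, apart from the acylcarnitine carrier SLC25A20, which gave 45 of 23002 genes. Of these, 35 had a mean level of at least 0.5 FPKM over the 6 samples and were tested. FPKM counts fragments per kilobase of transcript, scaled to sequencing depth. Levels set side by side between genes depend on the transcript length used for each, which is not given in the sources used here. SLC25A47 and SLC25A48 were not analysed here.

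U251, the cell line used, is an established line of human glioblastoma cells, and its RNA was sequenced. The control group (sh-NC, 3 samples) carried a control lentivirus. The knockdown group (sh-TRAF2, 3 samples) carried a lentivirus with a short hairpin RNA (shRNA) against TRAF2, an adaptor of tumour necrosis factor receptors. Both were stable lines kept by puromycin selection, and neither dose, time nor the number of clones behind a line is given in the sources used here. The comparison asks which transcripts change when TRAF2 is lowered, and it was read here for the carriers by the substrate they move.

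The family is built from repeats of one carrier fold, and each member holds its substrate in a single central site that opens to either face of the membrane in turn. Through these carriers ATP leaves mitochondria and ADP and phosphate enter, the malate-aspartate shuttle brings in reducing equivalents, and citrate is exported for fatty acid synthesis in the cytosol. The carriers are encoded in the nucleus, made without a cleaved targeting peptide in most cases, and inserted by the TIM22 complex with the help of small TIM chaperones.

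TRAF2 itself stood at 15.1, 18.4 and 15.3 FPKM in the sh-NC samples and at 3.26, 3.22 and 3.33 FPKM in the sh-TRAF2 samples. The groups did not overlap, and the sh-TRAF2 mean was 79.9% lower (log2 fold change -2.27, SE 0.079, n = 3 per group). Reads on genes ran from 33999558 to 36823562 per sample, replicates correlated at 0.993 to 0.995 on the log2 scale, and samples of different groups at 0.979 to 0.985. Among markers of glioblastoma cells VIM, CD44 and SOX2 were expressed in every sample, while S100B and OLIG2 were at or near 0. Of 13 markers of other cell types, 10 had a mean under 0.5 FPKM, PTPRC, EPCAM, PECAM1, VWF and RBFOX3 among them. The macrophage marker CD68, which many cells also express, was at 16.1 ± 0.363 FPKM in sh-NC and 15.9 ± 1.44 FPKM in sh-TRAF2 and made up most of the summed level of the list. The summed level of the 7 glioblastoma markers was 1427 to 1503 FPKM in sh-NC and 1777 to 1823 FPKM in sh-TRAF2, with VIM, NES and GFAP higher. VIM made up most of this sum, at 1242 ± 38.9 FPKM in sh-NC and 1582 ± 24.8 FPKM in sh-TRAF2. GFAP was low, at 0.467 ± 0.176 and 1.18 ± 0.552 FPKM, and its groups overlapped. CD44 (log2 fold change -0.07) and SOX2 (0.12) were not called. The summed level of the 13 markers of other cell types was 23.3 to 25.4 FPKM in sh-NC and 25.4 to 27.1 FPKM in sh-TRAF2, with KRT8 and ACTA2 higher after knockdown. The part of such cells in the carrier results was not tested, and in bulk RNA fewer cells of a type and less RNA per cell cannot be told apart.

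The shRNA target sequences and the sites in carrier transcripts that share letters with them are shown because SLC25A25, the carrier with the largest rise, holds such a site more than once. The study designed 2 TRAF2 shRNAs, and which of them was sequenced is not given in the sources used here. In the first, capitals mark ATTCCAC, bases 10 to 16 counted from 1 at the 5′ end, and in the carrier sites capitals mark the same 7 letters. Target sites are from the study's shRNA list and sites in the longest 3′ untranslated region (3′UTR) of each gene from GENCODE release 29 (GRCh38). All are read on the strand of the transcript, which is the plus strand for each.
sh-TRAF2#1 target, TRAF2, chr9:136916579-136916599: cccttgcagATTCCACgccat
sh-TRAF2#2 target, TRAF2, chr9:136920480-136920500: ctggaccaagacaagattgaa
SLC25A25, first site, chr9:128108474-128108502: accagccccacATTCCACttgtgtcactg
SLC25A25, second site, chr9:128109064-128109092: gttgcacttccATTCCACcagaatgacct
SLC25A43, chrX:119453276-119453304: atcatgatggcATTCCACgagattttata
SLC25A27, chr6:46676549-46676577: ggaagacacctATTCCACagagactgatt

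Among tested carriers the 7 letters were found in SLC25A25 and SLC25A43, which is 2 of 35 (5.71%), beside 1246 of 10820 tested genes with a 3′UTR (11.5%). Over all genes, those holding the motif had a median log2 fold change of -0.10 (177 higher and 442 lower) and those without it 0.02 (2409 higher and 1940 lower). The 3′UTRs of the first class were longer, at a median of 3437 bases against 1500. These counts cannot test the motif, because it was chosen with earlier results of these data known. Whether the hairpin acted on such sites was not tested. The carriers that hold it went both ways, with SLC25A25 higher and SLC25A43 lower, and the 33 carriers without it held 7 of the 8 rises and 7 of the 8 falls. SLC25A33, SLC25A14 and SLC25A23, which showed the largest falls of the family, had no such letters in the windows read.

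The carriers did not move together. The sh-TRAF2 samples were set against the sh-NC samples with limma, on the scale of log2(FPKM + 0.1) and with Benjamini-Hochberg adjustment over the 11870 genes tested, and a gene is said to have risen or fallen where its adjusted p was under 0.05. Of 35 tested carriers 8 rose, 8 fell and 19 were not called. The count of rises was 3 to 7 when 1 sample was left out, with the lowest count without sh-NC replicate 3, a count of 4 without sh-NC replicate 1 or sh-TRAF2 replicate 2 and of 5 where sh-TRAF2 replicate 1 was the sample removed. Thus 45.7% of carriers were called, and among all tested genes 44.6% were called (23.7% higher, 20.9% lower), so the share for carriers was near the background. Their median log2 fold change was -0.0020, beside 0.019 for all tested genes, and the median of its absolute size was 0.172 beside 0.187. When 1 sample was left out, the share called over all tested genes was also lower, at 36.1% to 42.6%.

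Most of the called carriers moved little. For 12 of 16 the log2 fold change was under 0.5 in size, and SLC25A25 alone passed the threshold of the study, an absolute log2 fold change above 1, beside 1.72% of all tested genes (0.986% higher). SLC25A33, at -0.9994, was just outside it. In 20 of 35 carriers (57.1%) the 3 sh-NC and the 3 sh-TRAF2 values did not overlap, near the 55.5% of all tested genes. Those 20 include all 16 called carriers and, with adjusted p from 0.0791 to 0.289, SLC25A13, SLC25A38, SLC25A39 and SLC25A46.

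**Figure D1:**
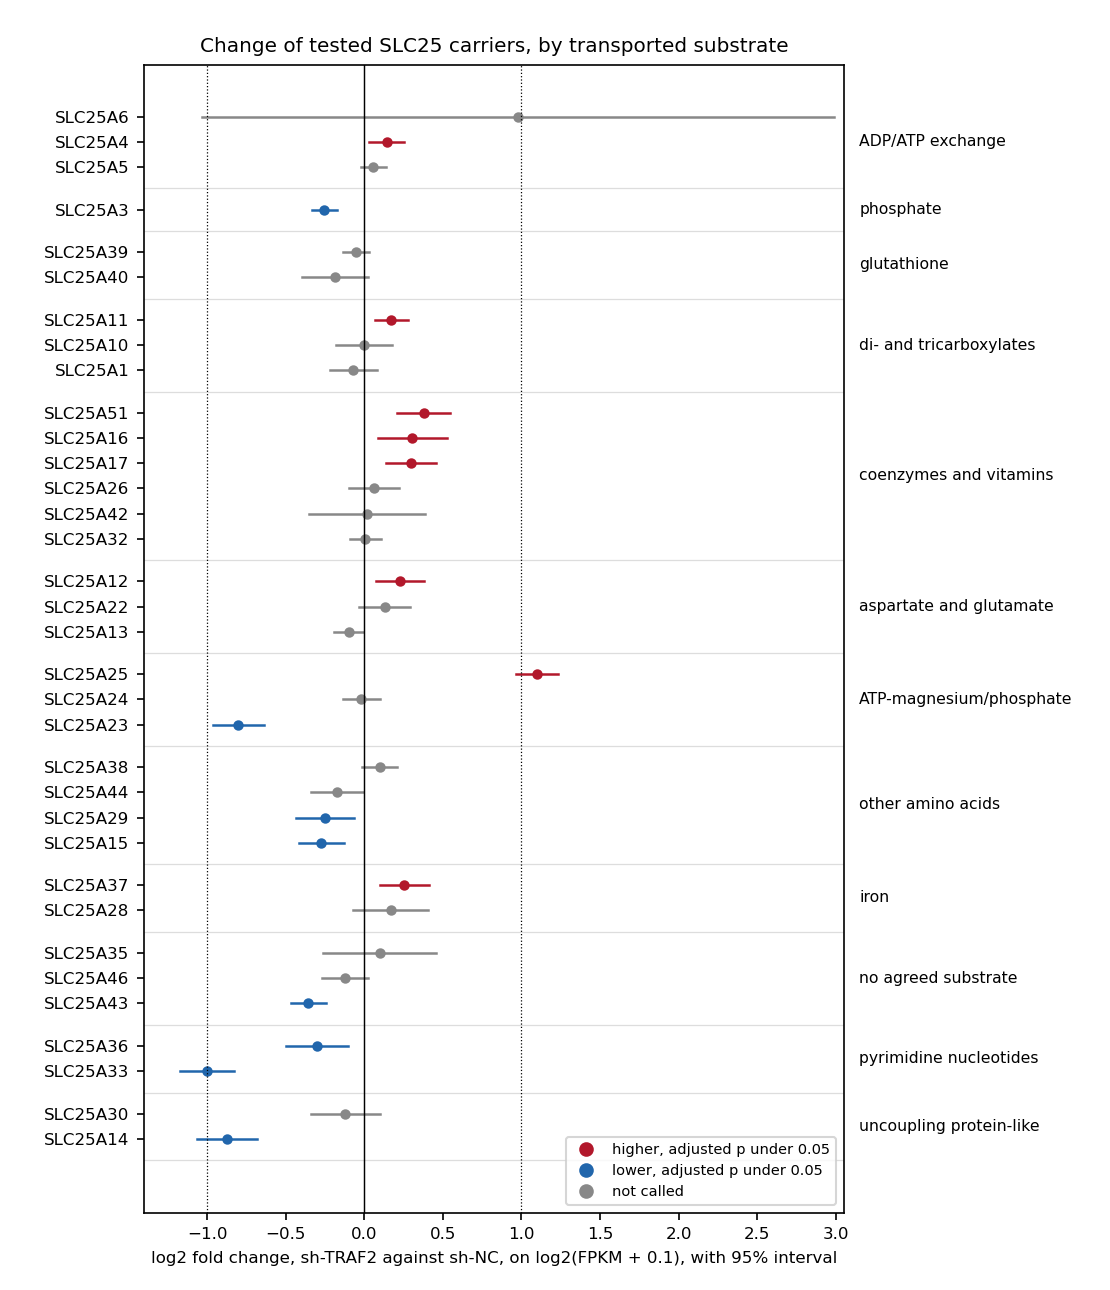
Log2 fold change of the tested carriers (points, x axis, 1 carrier not shown, on the log2(FPKM + 0.1) scale) with its 95% interval from limma, grouped by transported substrate, for sh-TRAF2 against sh-NC (3 samples each). SLC25A25 sits above 1, SLC25A33, SLC25A14 and SLC25A23 lie between -0.999 and -0.80, and the interval of SLC25A6 runs from -1.03 to 2.99.

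The summed level of all 45 carriers was 721 to 737 FPKM in sh-NC and 720 to 747 FPKM in sh-TRAF2, ranges that overlap. A small number of carriers made up most of it. SLC25A5, SLC25A3 and SLC25A39 together gave 54.0% to 55.9% of the sum in every sample. At the other end, 10 carriers had a mean under 0.5 FPKM and were not tested. These were SLC25A2, SLC25A18, SLC25A21, SLC25A27, SLC25A31, SLC25A34, SLC25A41, SLC25A45, SLC25A52 and SLC25A53. GENCODE release 29 names 9 pseudogenes of SLC25A5, 6 of SLC25A6, 5 each of SLC25A1 and SLC25A15, 3 of SLC25A51, 2 each of SLC25A3, SLC25A24 and SLC25A39, and 1 each of SLC25A14, SLC25A18, SLC25A36 and SLC25A38. How reads that fit both a carrier and such a copy were counted is not given in the sources used here, so the levels of these carriers are uncertain to that extent.

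**Figure D2:**
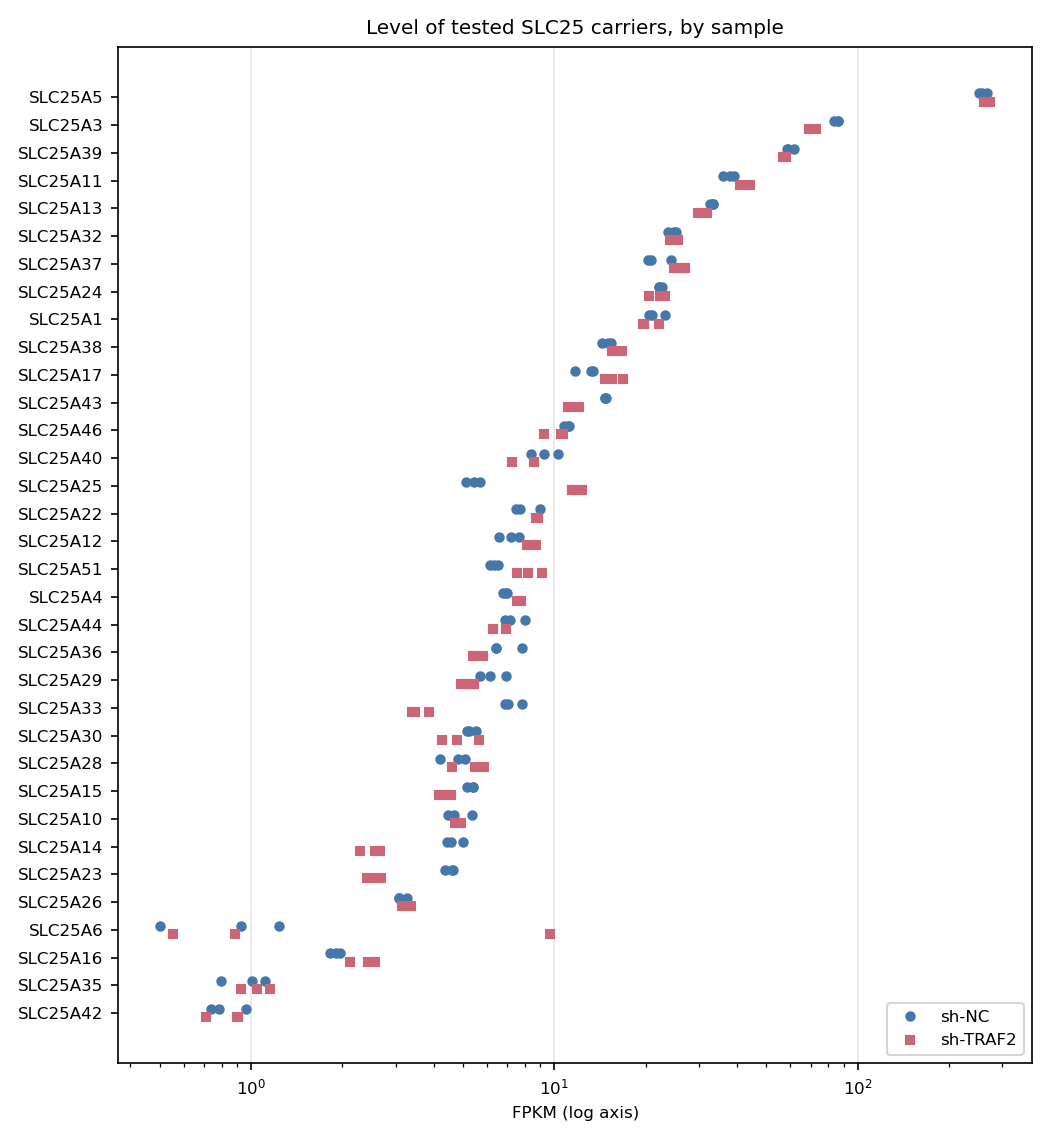
Level of the tested carriers in FPKM (x axis, log scale, 1 carrier not shown) in the 3 sh-NC samples (circles) and the 3 sh-TRAF2 samples (squares), ordered by the mean over the 6 samples. Levels run from under 1 FPKM for SLC25A42 to 252 to 274 FPKM for SLC25A5, and 1 sh-TRAF2 sample of SLC25A6 stands at 9.70 FPKM, away from its other values.

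The ATP-magnesium/phosphate carriers, which shift the adenine nucleotide pool of the matrix and are regulated by calcium through EF hands, moved in different directions. SLC25A25 (SCaMC-2; 9:128068201-128109245, plus strand) was at 5.13, 5.45 and 5.67 FPKM in sh-NC and at 11.4, 11.4 and 12.3 FPKM in sh-TRAF2. All sh-TRAF2 values were above all sh-NC values, and the level rose by 116% (log2 fold change 1.10, SE 0.060, adjusted p = 7.43e-06 by limma). These values rest on 901 to 1040 reads per sh-NC sample and 1936 to 2131 reads per sh-TRAF2 sample. SLC25A23 (SCaMC-3; 19:6436079-6465203, minus strand) was at 4.60, 4.64 and 4.35 FPKM in sh-NC and at 2.69, 2.56 and 2.42 FPKM in sh-TRAF2. It fell by 43.6%, again without overlap (log2 fold change -0.80, SE 0.071, adjusted p = 7.46e-05 by limma).

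SLC25A24 (SCaMC-1), the most abundant of the group, was at 22.3 ± 0.322 FPKM in sh-NC and 22.0 ± 1.33 FPKM in sh-TRAF2 (SD, n = 3), with a 95% interval of the log2 fold change from -0.14 to 0.10. The calcium-independent SLC25A41 was above 0 in 1 sample only, at 0.0166 FPKM. The make-up of the group therefore differed between the lines. SLC25A25 gave 16.8% ± 0.630 of its summed level in sh-NC and 32.3% ± 1.51 in sh-TRAF2, while SLC25A23 went from 14.1% ± 0.642 to 7.05% ± 0.460 and SLC25A24 from 69.1% ± 0.424 to 60.6% ± 1.42. The sum itself was 32.2 ± 0.432 FPKM and 36.3 ± 1.5 FPKM.

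In GENCODE release 29, genes of the deposited table overlap 4 of the 16 called carriers on the other strand, namely SLC25A25, SLC25A23, SLC25A11 and SLC25A12. Whether the counting used strand is not given in the sources used here. NAIF1, which overlaps SLC25A25, had 3.63 FPKM in sh-NC and 3.57 FPKM in sh-TRAF2 (log2 fold change -0.03), and the antisense RNA SLC25A25-AS1 had 0.563 and 0.475 FPKM (adjusted p = 0.470 by limma). CRB3, which overlaps SLC25A23, was at or near 0 in every sample. Neither partner of SLC25A25 was called.

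Both pyrimidine nucleotide carriers fell, beside 20.9% of all tested genes, and no difference between substrate groups was tested. These proteins bring pyrimidine nucleotides into the matrix, where mitochondrial DNA and RNA are made. SLC25A33 (PNC1; 1:9539482-9585179, plus strand) was at 6.89, 7.04 and 7.82 FPKM in sh-NC and at 3.86, 3.46 and 3.41 FPKM in sh-TRAF2. The groups were well apart, and the level fell by 50.7% (log2 fold change -0.999, SE 0.075, adjusted p = 3.64e-05 by limma). SLC25A36 (PNC2) was at 6.41, 6.42 and 7.84 FPKM against 5.82, 5.40 and 5.43 FPKM, a log2 fold change of -0.30 (SE 0.086, adjusted p = 0.0210 by limma). The highest sh-NC value stands away from the other sh-NC values there, and the call was lost with no filter on low values and without sh-TRAF2 replicate 2 or 3. The summed level of both carriers was 14.1 ± 1.32 FPKM in sh-NC and 9.13 ± 0.481 FPKM in sh-TRAF2, and SLC25A33 gave 51.4% ± 1.26 and 39.2% ± 0.687 of it.

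Of the carriers named after uncoupling proteins, SLC25A14 (BMCP1, also called UCP5; X:130339888-130373361, plus strand) was at 4.55, 4.43 and 5.01 FPKM in sh-NC and at 2.56, 2.29 and 2.66 FPKM in sh-TRAF2. Every sh-TRAF2 value was lower than every sh-NC value, and the level fell by 46.3% (log2 fold change -0.87, SE 0.083, adjusted p = 1.12e-04 by limma). Its relative SLC25A30 (KMCP1) was at 5.23, 5.51 and 5.14 FPKM against 5.63, 4.26 and 4.79 FPKM. These groups overlapped, with a log2 fold change of -0.12 and a 95% interval from -0.34 to 0.10. SLC25A27 (UCP4) was at 0.165 to 0.312 FPKM and was not tested.

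**Figure D3:**
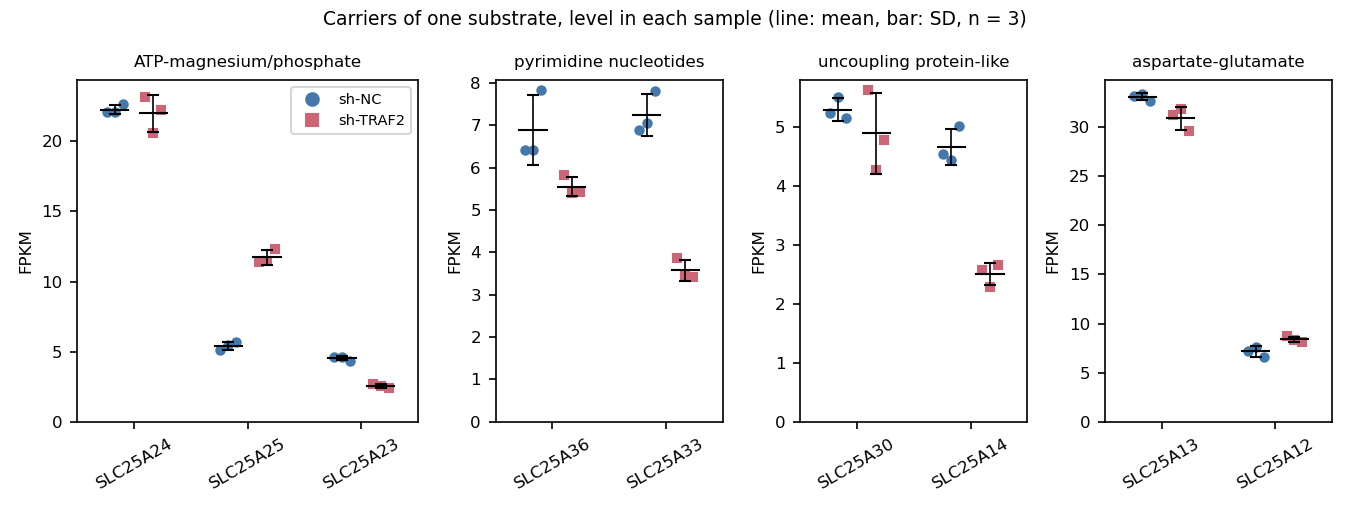
FPKM in each sample (y axes start at 0) for carriers of the same group, with sh-NC as circles, sh-TRAF2 as squares, the mean as a line and the SD as a bar (n = 3). SLC25A14 and SLC25A30 are grouped by their likeness to uncoupling proteins and not by a shared substrate. SLC25A25 is higher and SLC25A23, SLC25A33 and SLC25A14 are lower in all sh-TRAF2 samples, while SLC25A24 and SLC25A30 overlap between groups.

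Related carriers were set against each other directly by the log2 ratio of their levels in each sample, for the 10 of 13 fixed pairs in which both members were tested. With 3 samples against 3 an exact two-sided permutation test over 20 assignments cannot give a p under 0.1, and the smallest value after adjustment over the 10 pairs was 0.167, so no pair could pass 0.05. In 6 pairs the ratios of the groups did not overlap, each with p = 0.1 by the exact permutation test. Levels of single genes did not overlap in 55.5% of all tested genes, and the share for ratios of gene pairs was not measured. SLC25A4, SLC25A5, SLC25A6 and SLC25A24 are each in several pairs, so the pairs are not independent. The ratio of SLC25A25 to SLC25A24 was 0.246 in sh-NC and 0.535 in sh-TRAF2, a difference of 1.12 on the log2 scale (SE 0.066). For SLC25A23 to SLC25A24 the difference was -0.78 (SE 0.069), for SLC25A33 to SLC25A36 -0.70 (SE 0.047) and for SLC25A14 to SLC25A30 -0.75 (SE 0.117). It was 0.33 (SE 0.061) for SLC25A12 to SLC25A13 and 0.09 (SE 0.024) for SLC25A4 to SLC25A5. The 2 mitoferrins, the 2 glutathione carriers and both pairs with SLC25A6 had ratios that overlapped between groups.

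Carriers of coenzymes and vitamins held 3 of the 8 rises and none of the falls, with 7 of 8 members tested. Over all tested genes 23.7% were higher and 20.9% lower, and no difference between substrate groups was tested. SLC25A51, which imports NAD+, was at 6.14, 6.54 and 6.32 FPKM in sh-NC and at 7.56, 8.19 and 9.08 FPKM in sh-TRAF2, a log2 fold change of 0.38 (SE 0.073, adjusted p = 0.00367 by limma). SLC25A17, which carries coenzyme A, FAD and NAD+ and sits in peroxisomes, was at 11.7, 13.4 and 13.2 FPKM against 16.8, 15.5 and 14.7 FPKM. Its log2 fold change was 0.30 (adjusted p = 0.0096 by limma). SLC25A16, a candidate coenzyme A carrier, was at 1.89 ± 0.0712 FPKM and 2.37 ± 0.229 FPKM (log2 fold change 0.30, adjusted p = 0.0309 by limma), and its call was lost with no filter on low values and in 5 of the 6 fits that leave out 1 sample.

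No other tested carrier of cofactors was called. SLC25A32 (folate and FAD), the highest of them, was at 24.5 ± 0.804 FPKM and 24.7 ± 0.733 FPKM, and the interval of its log2 fold change ran from -0.09 to 0.11. The log2 fold change was 0.06 for SLC25A26 (S-adenosylmethionine) and 0.02 for SLC25A42 (coenzyme A). SLC25A52, close in sequence to SLC25A51, had at most 1 read in a sample, and how reads that fit both copies were counted is not given in the sources used here. The summed level of the 8 was 54.0 ± 1.66 FPKM in sh-NC and 59.2 ± 0.918 FPKM in sh-TRAF2.

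Phosphate enters the matrix through SLC25A3, which was the second most abundant member by FPKM, a rank that depends on the transcript length used. In sh-NC replicate 1 it had 19402 reads, against 12386 for SLC25A5. SLC25A3 was at 85.9, 86.2 and 83.6 FPKM in sh-NC and at 72.1, 69.3 and 72.8 FPKM in sh-TRAF2. The groups lay well apart, and the level fell by 16.2% (log2 fold change -0.26, SE 0.035, adjusted p = 6.25e-04 by limma). Because it is so abundant, this was also a shift in the make-up of the family. SLC25A3 gave 11.6% to 11.7% of the summed carrier level in sh-NC and 9.52% to 10.01% in sh-TRAF2.

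Among the ADP/ATP carriers, which exchange cytosolic ADP for matrix ATP, SLC25A5 (ANT2) had the highest FPKM. It was at 258 ± 7.30 FPKM in sh-NC and 268 ± 7.30 FPKM in sh-TRAF2. Its groups overlapped, and the 95% interval of its log2 fold change was -0.02 to 0.14. The part of SLC25A6 in this group is uncertain, as described below. SLC25A4 (ANT1), the heart and muscle form, was at 6.98, 6.78 and 6.92 FPKM against 7.52, 7.61 and 7.75 FPKM. It rose by 0.14 on the log2 scale (SE 0.049, adjusted p = 0.0408 by limma), and the call was lost with TPM, the replicate block and limma-voom and in all 6 fits that leave out 1 sample. The germ cell form SLC25A31 was above 0 in 1 sample only, at 0.0153 FPKM.

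SLC25A6 (ANT3; X:1386152-1392724, minus strand) had the widest spread of the family. It was at 1.24, 0.925 and 0.501 FPKM in sh-NC and at 0.554, 0.884 and 9.70 FPKM in sh-TRAF2, from 27 to 64 reads in 5 samples and 494 reads in sh-TRAF2 replicate 3. Its log2 fold change of 0.98 (SE 0.88, adjusted p = 0.393 by limma) rests on that sample and was -0.22 without it. SLC25A6 is a pseudoautosomal gene, which the X and Y chromosomes share, so the other tested pseudoautosomal genes were looked at after these values were seen. How reads that fit both the X and the Y copy were counted is not given in the sources used here. The level of SLC25A6 is therefore uncertain, and a low value does not show that it is little expressed. With SLC25A6 itself counted, 4 such genes were tested, CD99, GTPBP6, SLC25A6 and VAMP7. All 4 had a highest value more than 2 times the lowest within a group, by 2.37, 10.9, 17.5 and 8.31 times. The same held for 3.58% of all tested genes and for 1 of 35 carriers, SLC25A6. GTPBP6 and VAMP7 were each highest of the sh-NC samples in replicate 3 and of the sh-TRAF2 samples in replicate 2. In sh-TRAF2 replicate 1, however, GTPBP6 was at 0.899 FPKM, above its 0.700 FPKM in sh-NC replicate 3. CD99 was also highest of the sh-TRAF2 samples in replicate 2, whereas SLC25A6 was high in sh-TRAF2 replicate 3. Only 3 of 11870 tested genes had sh-TRAF2 replicate 3 at 5 times the mean of the other two or more.

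Among the carriers of aspartate and glutamate, SLC25A12 (aralar, also AGC1) and SLC25A13 (citrin, also AGC2) carry out the same exchange in the malate-aspartate shuttle and stood on opposite sides of 0. SLC25A12 was at 7.21, 7.65 and 6.59 FPKM in sh-NC and at 8.70, 8.29 and 8.14 FPKM in sh-TRAF2 (log2 fold change 0.23, SE 0.066, adjusted p = 0.0228 by limma). The rise was lost with no filter on low values and in 4 of the 6 fits that leave out 1 sample. SLC25A13, more abundant, was at 33.2, 33.4 and 32.7 FPKM against 31.2, 31.9 and 29.7 FPKM, without overlap but with an adjusted p of 0.0791 by limma (log2 fold change -0.10). It was called lower with TPM (-0.11) and after quantile normalization (-0.14). The glutamate carrier SLC25A22 had a log2 fold change of 0.13 with overlapping groups, and its relative SLC25A18 had 0 to 3 reads per sample.

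The oxoglutarate-malate carrier SLC25A11, the other carrier of that shuttle, was at 37.96, 39.1 and 35.9 FPKM in sh-NC and at 41.0, 44.1 and 42.1 FPKM in sh-TRAF2. It rose by 0.17 on the log2 scale (SE 0.046, adjusted p = 0.0168 by limma), a call lost after quantile normalization and without sh-NC replicate 3 or sh-TRAF2 replicate 2. The citrate carrier SLC25A1, which supplies the cytosol with citrate for fatty acid synthesis, was at 20.6, 20.9 and 23.1 FPKM against 19.7, 19.7 and 22.2 FPKM. Those groups overlapped, and the 95% interval of its log2 fold change was -0.22 to 0.08. The dicarboxylate carrier SLC25A10 was at 4.83 ± 0.465 FPKM and 4.81 ± 0.112 FPKM, and SLC25A21 had 0 to 6 reads per sample.

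Among carriers of other amino acids, 2 of 4 tested members fell and none rose, beside 20.9% lower and 23.7% higher over all tested genes. SLC25A15 (ORNT1), the ornithine carrier of the urea cycle, was at 5.14, 5.38 and 5.41 FPKM in sh-NC and at 4.17, 4.39 and 4.58 FPKM in sh-TRAF2 (log2 fold change -0.27, SE 0.062, adjusted p = 0.00773 by limma). SLC25A29, a carrier of basic amino acids, was at 6.15, 5.67 and 6.92 FPKM against 5.27, 4.94 and 5.43 FPKM (log2 fold change -0.25, adjusted p = 0.0332 by limma). The fall of SLC25A29 was lost with no filter, without a trend in eBayes and in 5 of the 6 fits that leave out 1 sample. SLC25A38, the glycine carrier needed for haem synthesis, had a log2 fold change of 0.10 and SLC25A44, the carrier of branched-chain amino acids, one of -0.17, with adjusted p of 0.144 and 0.0865 by limma. SLC25A2 had 0 to 4 reads per sample.

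The mitoferrins SLC25A37 and SLC25A28 bring iron into the matrix for haem and iron-sulfur clusters. SLC25A37 was at 20.8, 24.2 and 20.4 FPKM in sh-NC and at 26.1, 27.0 and 24.8 FPKM in sh-TRAF2 (log2 fold change 0.26, SE 0.069, adjusted p = 0.0167 by limma). The lowest sh-TRAF2 value was close to the highest sh-NC value, and the call was lost in 3 of the 6 fits that leave out 1 sample. SLC25A28 was at 4.70 ± 0.455 FPKM and 5.31 ± 0.645 FPKM, with overlapping groups.

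Neither glutathione carrier was called, though SLC25A39 was called lower after quantile normalization (-0.10) and SLC25A40 with the replicate number as a block. SLC25A39 was at 58.3, 61.5 and 58.9 FPKM in sh-NC and at 56.6, 57.8 and 58.1 FPKM in sh-TRAF2, and the 95% interval of its log2 fold change was -0.13 to 0.03. SLC25A40 was at 9.23, 8.36 and 10.2 FPKM against 8.59, 7.25 and 8.55 FPKM, with an interval from -0.40 to 0.02.

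Of 6 members with no agreed substrate 3 were tested. SLC25A43 was at 14.8, 14.7 and 14.7 FPKM in sh-NC and at 11.1, 12.1 and 11.3 FPKM in sh-TRAF2, so that the sh-NC values were close together and all above the sh-TRAF2 values. It fell by 21.9% (log2 fold change -0.36, SE 0.048, adjusted p = 6.15e-04 by limma). SLC25A46, an outer membrane protein tied to mitochondrial fission and lipid transfer, and SLC25A35 had log2 fold changes of -0.12 and 0.10 and were not called.

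Leaving out each sample in turn, 9 of the 16 called carriers kept their call in all 6 fits. These were SLC25A25, SLC25A17 and SLC25A51 among the rises and SLC25A33, SLC25A14, SLC25A23, SLC25A43, SLC25A15 and SLC25A3 among the falls. The other 7 were lost in at least 1 fit, and fewer of all tested genes were called in each of these fits than with every sample.

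Genes that insert the carriers or work on what they carry were described by fixed lists. Of 16 tested genes of the carrier import machinery 8 rose and 3 fell, with a median log2 fold change of 0.13. Among all tested genes 23.7% rose and 20.9% fell, which is the background for this list and the lists that follow. The small chaperones TIMM10 (0.43) and TIMM9 (0.27) were among the rises, together with the channel TIMM22 of the carrier translocase (0.24), while the outer membrane pore TOMM40 (-0.69) and its receptor TOMM20 (-0.56) fell. The small chaperone TIMM10B (-0.27) fell as well, and TOMM70 (0.10) was not called. TOMM40 was at 63.5 ± 2.61 FPKM in sh-NC and 39.2 ± 0.711 FPKM in sh-TRAF2.

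Of 20 tested genes for other mitochondrial solute transport 4 rose and 3 fell, with a median of 0.05. SFXN1, the mitochondrial serine transporter, fell from 20.7 ± 0.404 to 8.30 ± 0.259 FPKM (log2 fold change -1.31, SE 0.046, adjusted p = 1.16e-06 by limma), a larger change than that of any called carrier. Its relative SFXN4 fell by 0.26 on the log2 scale, and LETM1, a cation exchanger, rose by 0.40. Of 30 tested enzymes that use carried substrates 8 rose and 11 fell, with a median of -0.03. ACLY, which splits the citrate that SLC25A1 exports, fell by 0.71 and the oxoglutarate dehydrogenase subunit OGDH by 0.36. MDH1, the cytosolic malate dehydrogenase of the malate-aspartate shuttle, and MTHFD2 of mitochondrial folate metabolism rose by 0.61 and 0.35.

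**Figure D4:**
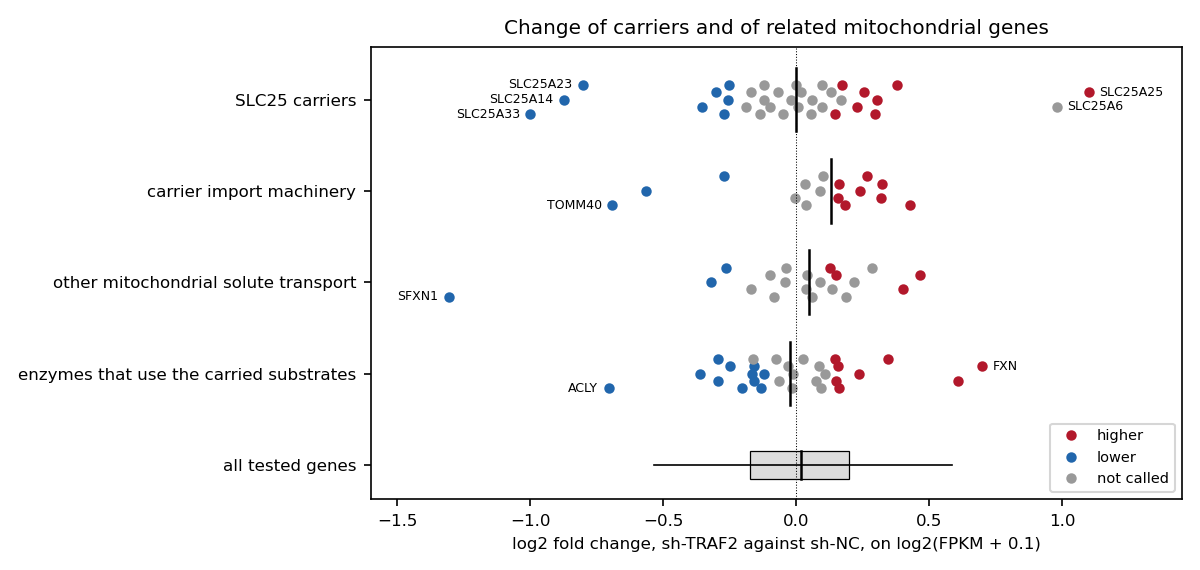
Log2 fold change (x axis, on the log2(FPKM + 0.1) scale) of each tested carrier and of 3 lists of related mitochondrial genes, with the median of each as a vertical bar and names for genes beyond 0.65 in size. The box of all 11870 tested genes runs from the 25th to the 75th percentile and its line from the 5th to the 95th. The median of the carriers lies at -0.0020 and that of the import machinery at 0.13.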

How the data were processed

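RNA was extracted with TRIzol from 3 sh-NC and 3 sh-TRAF2 samples of U251 cells, libraries were made with the VAHTS Universal V6 kit, and OE Biotech sequenced and processed them. The authors deposited FPKM in a single table, in which each sample has its column and each gene its annotation. The submitters' processing notes name HISAT2, HTSeq, DESeq2 and R 3.2.0. The genome build, the annotation and whether counting was stranded are not given in the sources used here. All columns were assigned to a sample from the labels. The replicates were described as biological, and what separates them is not stated.

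The deposited FPKM were put on the scale log2(FPKM + 0.1), and genes with a mean under 0.5 were left out. The groups were compared with limma 3.58.1 in R 4.3.3 (trended eBayes, two-sided), giving 11870 adjusted p-values. Fold changes on this scale understate those of low genes. In simulated data of this comparison, 91 of 100 genes changed by 1 on the log2 scale and 97 of 100 changed by 1.5 were called, with 9 false calls among 11870 genes. Only these genes were changed in the simulation, whereas 44.6% of tested genes were called in the data. Its rates therefore do not describe calls of changes under 1 in size, which most called carriers had. FPKM of a gene are whole multiples of 1 step, which gave the reads behind them for all 23002 genes, with a relative tolerance of 1e-09. For 2643 genes with reads in a single sample the count was set to 1. In simulated data 96.6% of 1700 genes were recovered exactly. Replicates of a group differed by more than counting noise (chi-square per gene 5.26 to 13.0).

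Named are TRAF2, the most abundant member and the one with the largest change in each substrate group, up to 8 rises and 8 falls among called members without overlap, tested paralogue pairs, and, by adjusted p, up to 2 genes in each direction from every other list. One member and 1 other gene are not reported by name here. Other genes were named after their values were seen. The members, substrate groups, lists and the motif were chosen with earlier results of these data known. Motifs were searched in the longest 3′UTR of each gene (GENCODE release 29, GRCh38), on the transcript strand only, with 10820 of 11870 tested genes matched by NCBI Gene number. Alternatives were limma-voom on recovered reads, a block for the replicate number, an untrended eBayes, quantile normalization, TPM, other pseudocounts (1 and 0.01), other filters (none and a mean of at least 1 FPKM) and each sample left out in turn. Results without SLC25A6 were added after seeing the data. Scripts ran in Python 3.11.15 with pandas 2.3.3, numpy 2.4.6, matplotlib 3.10.9 and scipy 1.17.1.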

Additional observations from a re-analysis of the deposited data

How the results depend on the processing

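The count of carriers that rose was 8 and fell to between 3 and 7 when 1 sample was left out (3 without sh-NC replicate 3), while the count of falls stayed between 6 and 8. The share called over all tested genes was 44.6% with every sample and 36.1% to 42.6% with 1 left out. Both carrier counts remained within 1.5 times of 8 under every other alternative. With no filter on low values 6 carriers rose and 6 fell, beside 19.2% of 23002 genes called. Only SLC25A25 passed an absolute log2 fold change of 1. The count was 0 with a pseudocount of 1, it was 2 with a pseudocount of 0.01, with TPM and with limma-voom on recovered reads, and it ranged from 1 to 2 with 1 sample left out (2 without sh-NC replicate 1, sh-NC replicate 2 or sh-TRAF2 replicate 1). The median log2 fold change of the carriers was -0.0258 after quantile normalization and ran from -0.0370 to 0.0280 with 1 sample left out. Without SLC25A6 the counts were 8 higher, 8 lower and 1 past the fold threshold, with a median of -0.0104. Signs turned for SLC25A32 (-0.0066 with TPM, -0.024 after quantile normalization, -0.019 without sh-NC replicate 3 and -0.016 without sh-TRAF2 replicate 1), SLC25A24 (-0.0576 to 0.0288 with 1 sample left out, above 0 without sh-TRAF2 replicate 2) and SLC25A6 (-0.22 to 1.73, below 0 without sh-TRAF2 replicate 3). They also turned with 1 sample left out for SLC25A10 (-0.06 to 0.07), SLC25A42 (-0.05 to 0.12) and SLC25A35 (-0.03 to 0.19), and after quantile normalization for SLC25A10 (0.01) and SLC25A42 (-0.03). None of these 6 carriers was called. The cause of these shifts was not tested. Same-numbered samples did not deviate together (correlations -0.081, 0.072 and 0.073), and with the replicate number as a block 7 carriers rose and 10 fell. Of 6 samples 4 correlated best with their own number. Over the named genes and alternatives, 524 values kept direction and side of the threshold, 36 lost the call and 4 gained one. The lowest tested carriers rest on under 100 reads in some samples, which limits SLC25A6 and SLC25A42.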
